A study of Homo sapiens with 4 samples.

Results

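Chromosomes 19 and 22 were followed through 4 lists of open chromatin regions from OPM-2, an established human multiple myeloma cell line. All peaks whose chromosome was 19 or 22 were taken, which gave 14793 of 307634 peaks, 10016 on chromosome 19 and 4777 on chromosome 22. The cells had been exposed for 72 h to 1 µM all-trans retinoic acid together with 1 µM pomalidomide (ATRA+POM), to 1 µM pomalidomide alone (POM), to 1 µM all-trans retinoic acid alone (ATRA), or to the vehicle DMSO. ATAC-seq was the assay: the Tn5 transposase cuts accessible DNA and joins sequencing adapters to it. Each treatment had 1 library, so differences between treatments cannot be set against a spread between replicates, and they carry no p-value. The 2 chromosomes were selected on their peak counts in these same lists, which differed between treatments, so the counts and ranks below are a description and not independent evidence of a difference.

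All-trans retinoic acid is the ligand of the retinoic acid receptors, transcription factors that act on enhancers and promoters. Pomalidomide binds cereblon, the substrate receptor of a ubiquitin ligase, and directs the degradation of the lymphoid transcription factors IKZF1 and IKZF3, on which myeloma cells depend. Chromosome 19 is known for its many housekeeping genes, its GC-rich sequence and its large clusters of zinc finger genes. Chromosome 22 carries the immunoglobulin lambda locus, which B cells and plasma cells use for antibody light chains. Open chromatin falls mainly at promoters, which are often rich in CG dinucleotides, and at enhancers, which often lie inside introns or between genes. With gene positions from RefSeq on GRCh38.p14, which is the same assembly as hg38, chromosome 19 had 24.1 protein-coding genes per Mb, the highest of 23 chromosomes. Chromosome 22 had 8.64 per Mb, well below chromosome 19 and close to chromosome 20.

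The lists differed in the reads at their peaks: the number of reads at a peak's summit, its pileup, was recovered from the deposited fold and p-value of each peak. The median pileup over all peaks was 22 reads in ATRA+POM, 15 in POM, 27 in ATRA and 30 in DMSO. The smallest pileup called was 7, 4, 8 and 8 reads in the same lists. Over the 42930 regions called in all 4 lists, the median ratio of the pileup to that of DMSO was 0.708 in ATRA+POM, 0.397 in POM and 0.872 in ATRA. Pileups printed below are raw reads and have to be read against these ratios. The read totals of the libraries were not used here.

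Promoter sequences at 5 of the regions described below show what kind of DNA is involved. Each line gives 250 bases before and 50 bases from the annotated start of the gene, from RefSeq on GRCh38.p14, on the strand of the gene from 5′ to 3′, with every CG dinucleotide in capitals. GGT1 is the promoter region that ranked higher with POM, and FDX2 and RNF126 are promoters that ranked much lower. The ZNF550 promoter was missing from the POM list, and the MICALL1 promoter was missing from the ATRA list. Their places are chr22:24583500-24583799 on the plus strand for GGT1, chr19:10315966-10316265 on the minus strand for FDX2, chr19:663165-663464 on the minus strand for RNF126, chr19:57559814-57560113 on the minus strand for ZNF550 and chr22:37906047-37906346 on the plus strand for MICALL1.
GGT1: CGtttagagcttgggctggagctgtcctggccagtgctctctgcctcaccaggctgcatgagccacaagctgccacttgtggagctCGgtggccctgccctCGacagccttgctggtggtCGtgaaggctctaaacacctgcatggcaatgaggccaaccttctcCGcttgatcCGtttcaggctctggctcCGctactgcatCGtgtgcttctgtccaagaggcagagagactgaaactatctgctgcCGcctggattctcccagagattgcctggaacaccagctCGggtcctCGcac
FDX2: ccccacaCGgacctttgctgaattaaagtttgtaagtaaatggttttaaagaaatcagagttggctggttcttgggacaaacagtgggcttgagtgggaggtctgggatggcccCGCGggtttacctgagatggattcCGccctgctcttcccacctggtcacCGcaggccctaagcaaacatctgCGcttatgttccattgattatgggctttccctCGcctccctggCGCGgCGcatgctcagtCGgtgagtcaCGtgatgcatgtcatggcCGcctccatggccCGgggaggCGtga
RNF126: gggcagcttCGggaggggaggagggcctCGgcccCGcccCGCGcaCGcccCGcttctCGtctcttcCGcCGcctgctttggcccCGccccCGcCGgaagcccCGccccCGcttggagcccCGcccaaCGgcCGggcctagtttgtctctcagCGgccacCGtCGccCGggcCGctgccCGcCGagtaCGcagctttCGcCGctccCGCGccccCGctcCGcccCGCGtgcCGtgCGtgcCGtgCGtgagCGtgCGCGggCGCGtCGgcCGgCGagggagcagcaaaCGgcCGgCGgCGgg
ZNF550: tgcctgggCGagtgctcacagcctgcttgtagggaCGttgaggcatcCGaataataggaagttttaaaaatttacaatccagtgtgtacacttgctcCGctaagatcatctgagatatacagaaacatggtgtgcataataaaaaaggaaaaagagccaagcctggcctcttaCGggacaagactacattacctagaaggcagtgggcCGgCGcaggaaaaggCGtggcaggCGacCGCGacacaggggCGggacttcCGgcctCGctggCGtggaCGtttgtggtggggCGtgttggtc
MICALL1: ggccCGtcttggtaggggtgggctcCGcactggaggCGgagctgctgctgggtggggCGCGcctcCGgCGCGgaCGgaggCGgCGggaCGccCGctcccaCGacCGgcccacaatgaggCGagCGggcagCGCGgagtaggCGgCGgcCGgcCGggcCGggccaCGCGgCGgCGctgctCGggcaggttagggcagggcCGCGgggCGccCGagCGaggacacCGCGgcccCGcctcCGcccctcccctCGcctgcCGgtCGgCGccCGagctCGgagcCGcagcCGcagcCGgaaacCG
The GGT1 window held 11 CG dinucleotides and 59.3% GC, the FDX2 window 15 and 56.0%, the ZNF550 window 17 and 53.0%, the MICALL1 window 48 and 81.0%, and the RNF126 window 50 and 79.7%. The motif searched was CG, which reads the same on both strands and overlaps no other motif searched. The promoter windows matched 1493 of the 1849 protein-coding genes of the 2 chromosomes, in 1967 windows. Of these windows 99.6% held at least 1 CG and the median was 22, against 97.9% and 21 in the 20164 windows of the other chromosomes. The windows of GGT1, FDX2 and ZNF550 therefore lay below that median and those of RNF126 and MICALL1 above it.

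The number of peaks on the 2 chromosomes was lower in both lists made with POM. Chromosomes 19 and 22 together held 3047 peaks in ATRA+POM, 2747 in POM, 4406 in ATRA and 4593 in DMSO. This was 3.57% of the ATRA+POM list (95% Wilson interval 3.44 to 3.69%), 3.97% of the POM list (3.83 to 4.12%), 5.75% of the ATRA list (5.59 to 5.92%) and 6.01% of the DMSO list (5.85 to 6.18%). The intervals of the lists with POM did not overlap those of the lists without it, and they cover counting error only. Because the 2 chromosomes were chosen on these counts, the gap between the intervals is a description and no test of a difference. Chromosome 19 alone had 2084 peaks in ATRA+POM, 1860 in POM, 2995 in ATRA and 3077 in DMSO. On chromosome 22 the lists held 963, 887, 1411 and 1516 peaks in the same order. The peaks covered 1919.5 kb in ATRA+POM, 1293.3 kb in POM, 3031.5 kb in ATRA and 3177.4 kb in DMSO.

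The log2 ratio of the shares was −0.60 for POM against DMSO (interval −0.66 to −0.53) and −0.69 for ATRA+POM against ATRA (−0.75 to −0.62). These 2 comparisons share no library. For ATRA against DMSO the ratio was −0.06 (−0.12 to −0.01), and for ATRA+POM against POM it was −0.16 (−0.23 to −0.08). ATRA+POM against DMSO gave −0.75 (−0.82 to −0.69). The other comparisons share lists with these and are given side by side. Among 23 chromosomes, chromosome 22 had the lowest and chromosome 19 the second lowest log2 ratio for POM against DMSO (−0.63 and −0.58) and for ATRA+POM against ATRA (−0.71 and −0.68). Chromosome 17 came next with −0.41 and −0.53, then chromosome 20 with −0.33 and −0.41, while chromosome 4 had the highest values with 0.30 and 0.40. Genes per Mb were counted over the whole chromosome, gene-free stretches included. By that measure, chromosomes of about the density of chromosome 22 did not share its values. Chromosome 11, with 9.60 genes per Mb, had log2 ratios of 0.0074 and 0.03, chromosome 16, with 9.38, had −0.26 and −0.34, and chromosome 20 had 8.35 genes per Mb. Around the regions called in all 4 lists, the median number of protein-coding genes within 500 kb gave another order. It was 30 on chromosome 19, 16 on 17, 14 on 22, 12 on 16, 10 on 20 and 9 on 11.

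**Figure D1:**
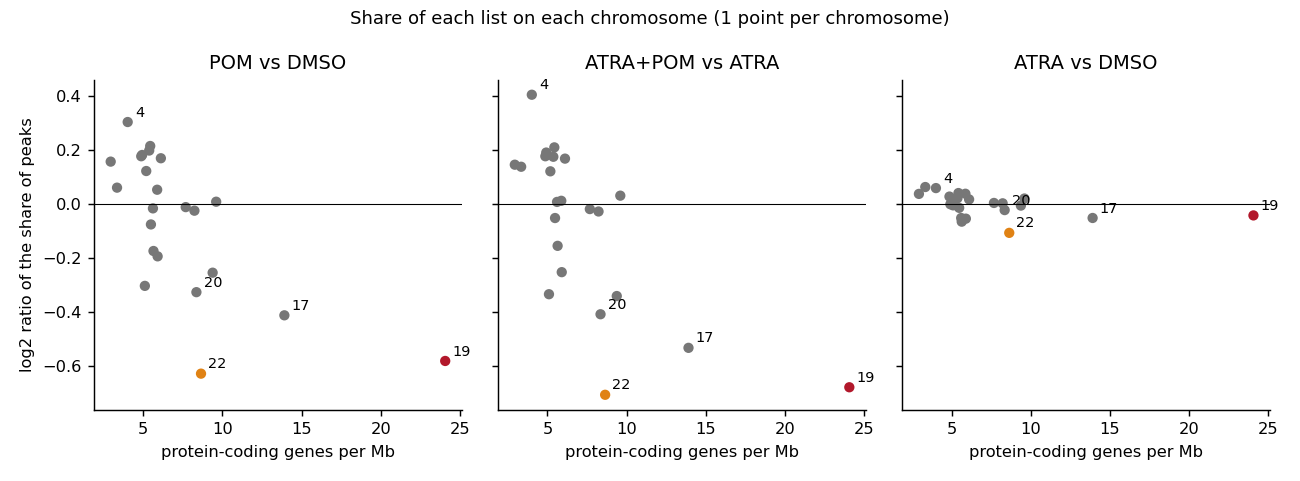
Each point is 1 of 23 chromosomes, with protein-coding genes per Mb on the x axis and the log2 ratio of the share of peaks on the y axis, for 3 comparisons with 1 library per list. Chromosomes 19 and 22, in colour, lie lowest in both comparisons of a list with POM against one without it, and between −0.11 and −0.04 for ATRA against DMSO.

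Peaks of all lists that overlapped by 1 bp or more were merged into 5599 regions on the 2 chromosomes, of 122632 in all. A peak in all 4 lists was found for 2158 of them (38.5%, against 34.8% of the regions elsewhere). The ATRA and DMSO lists shared 868 regions that neither list with POM held (15.5%, against 5.87% elsewhere). The reverse pattern, a peak in ATRA+POM and POM and in neither other list, was seen in 60 regions (1.07%, against 6.29% elsewhere). Regions of 1 list numbered 128 in ATRA+POM (2.29%, against 13.5% elsewhere) and 131 in POM (2.34%, against 7.16%). In the lists without POM they numbered 654 in ATRA (11.7%, against 7.75% elsewhere) and 764 in DMSO (13.7%, against 7.05%). The median pileup on the 2 chromosomes was 28 reads in ATRA+POM, 19 in POM, 37 in ATRA and 41 in DMSO.

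Over all peaks, 2179 of 4593 DMSO peaks on the 2 chromosomes (47.4%) overlapped no POM peak, where the share over the whole DMSO list was 36.6%. In the other direction 230 of 2747 POM peaks (8.37%) overlapped no DMSO peak, against 27.2% of the whole POM list. For ATRA+POM and ATRA, 1718 of 4406 ATRA peaks (39.0%) had no ATRA+POM peak, with 26.5% for the whole list, and 303 of 3047 ATRA+POM peaks (9.94%) had no ATRA peak, with 33.3% for the whole list. For ATRA and DMSO the shares were near those of the whole lists. There, 720 of 4406 ATRA peaks (16.3%) had no DMSO peak, with 19.5% for the whole list, and 914 of 4593 DMSO peaks (19.9%) had no ATRA peak, with 19.5% for the whole list. Between the lists with POM, 729 of 3047 ATRA+POM peaks (23.9%) had no POM peak, with 35.0% for the whole list, and 365 of 2747 POM peaks (13.3%) had no ATRA+POM peak, with 17.7% for the whole list.

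The lower counts were spread along both chromosomes. In 1 Mb bins with 20 or more DMSO peaks, all 79 bins had fewer POM than DMSO peaks, and the ratio of POM to DMSO lay between 0.409 and 0.952 with a median of 0.597. Elsewhere in the genome 1176 of 1650 such bins had fewer POM peaks, with a median of 0.857. The choice of bins by their DMSO count favours fewer POM peaks, and 96 bins of the 2 chromosomes held a peak. Some of the sparser bins did not have fewer POM peaks, such as 27 to 28 Mb of chromosome 19. For ATRA+POM against ATRA, 79 of 81 bins had fewer peaks, with a range of 0.348 to 1.09 and a median of 0.677, and elsewhere the median was 1.03. In ATRA against DMSO, 46 of 79 bins had fewer peaks and the range was 0.794 to 1.29. A bin was called when its ratio departed from that of its whole chromosome by 1.5 times. In POM against DMSO 1 bin was above (2.31% of all bins of the genome) and 0 were below (6.82% of all bins). In ATRA+POM against ATRA, 2 were above (2.99% of all bins) and 1 was below (8.91% of all bins).

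The bin farthest above the trend was 31 to 32 Mb of chromosome 19, which holds 1 protein-coding gene, TSHZ3, a zinc finger homeobox transcription factor. It had 25 peaks in ATRA+POM, 20 in POM, 23 in ATRA and 21 in DMSO, so the lists were nearly level there. The other bin above in ATRA+POM against ATRA was 23 to 24 Mb of chromosome 19, a stretch of zinc finger genes from ZNF728 to ZNF726, with 23 peaks in ATRA+POM, 19 in POM, 22 in ATRA and 19 in DMSO. The gene-free bin at 27 to 28 Mb of chromosome 19, beside the centromere, was too sparse to enter the count, with 14 peaks in ATRA+POM, 10 in POM, 7 in ATRA and 8 in DMSO. Next above the trend in POM against DMSO were 2 gene-rich bins. The bin at 45 to 46 Mb of chromosome 19, with the NF-kB subunit gene RELB and the AP-1 gene FOSB, had 65 peaks in ATRA+POM, 61 in POM, 84 in ATRA and 81 in DMSO. The bin at 41 to 42 Mb of chromosome 22, with the acetyltransferase gene EP300 and the DNA repair gene XRCC6, had 43, 47, 61 and 63.

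The bin with the lowest ratio in both comparisons was 48 to 49 Mb of chromosome 22, whose only protein-coding gene is TAFA5, which encodes a secreted chemokine-like protein. It had 8 peaks in ATRA+POM, 9 in POM, 23 in ATRA and 22 in DMSO. Relative to its own chromosome, the first Mb of chromosome 19 lay farthest below in POM against DMSO. This bin, with SHC2, PTBP1 and the azurophil granule genes AZU1, PRTN3 and ELANE, had 38 peaks in ATRA+POM, 30 in POM, 70 in ATRA and 72 in DMSO. The bin at 3 to 4 Mb of chromosome 19, with CELF5, NFIC and the elongation factor gene EEF2, had 46, 35, 71 and 83 peaks. TSHZ3 and TAFA5 thus mark bins with 1 gene at both ends of the range, and the bins of RELB, EP300, SHC2 and CELF5 held 38, 25, 33 and 29 genes.

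**Figure D2:**
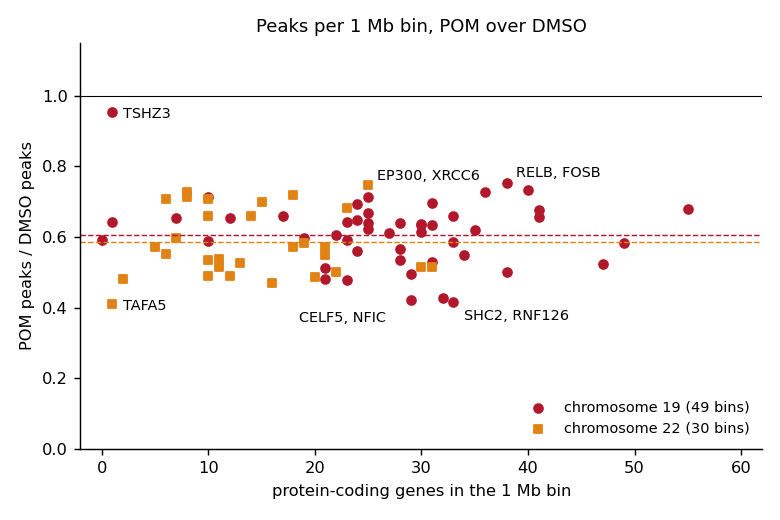
Each point is a 1 Mb bin of chromosome 19 or 22 with 20 or more DMSO peaks, with its number of protein-coding genes on the x axis and POM peaks divided by DMSO peaks on the y axis. Dashed lines give the ratios of the whole chromosomes, 0.605 for chromosome 19 and 0.585 for chromosome 22, and all 79 bins lie under the line of equal counts, from TAFA5 at 0.409 to TSHZ3 at 0.952. The choice of bins by their DMSO peaks favours ratios under that line.

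The number of genes around a region separated the bins less on these chromosomes than elsewhere. Summed over bins with fewer than 5 genes, chromosomes 19 and 22 had 136 POM peaks and 204 DMSO peaks, a ratio of 0.667, where such bins elsewhere gave 1.16. Bins with 30 or more genes gave 1032 and 1740 peaks, a ratio of 0.593, against 0.703 elsewhere. For ATRA+POM against ATRA the same classes gave 0.843 (1.498 elsewhere) and 0.673 (0.804 elsewhere).

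Peaks on the 2 chromosomes were narrower in the lists with POM, as on the other chromosomes. The median width was 563 bp in ATRA+POM (515 bp on the other chromosomes), 400 bp in POM (353 bp), 601 bp in ATRA (578 bp) and 607 bp in DMSO (576 bp). In the 2158 regions called in all lists the median POM width was 0.566 times the DMSO width, against 0.633 times elsewhere. The POM peak was the narrower one in 97.8% of these regions, against 92.8% elsewhere. The ATRA+POM width was 0.813 times the ATRA width, against 0.912 elsewhere. The ATRA width was 0.988 times the DMSO width, against 0.995 elsewhere. Width depends on depth and on the peak caller, and its part in the counts was not tested.

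Among regions called in all 4 lists, the ranks shifted in the same direction as the counts. Each region called in all 4 lists was ranked in each list by the deposited −log10 q-value among the same 42930 regions, and the shift is the percentile in the first list minus that in the second. In POM against DMSO the median shift of the 2158 regions on the 2 chromosomes was −13.8 percentile points (quartiles −27.5 and −3.26), and it was 0.33 points on the other chromosomes. For ATRA+POM against ATRA, it was −13.7 points (quartiles −26.5 and −2.94), against −0.23 elsewhere. The median percentile of these regions was 49.0 in POM and 70.5 in DMSO, and 48.6 in ATRA+POM and 69.4 in ATRA. Chromosome 22 (−14.1 and −14.9) and chromosome 19 (−13.6 and −12.9) had the lowest medians of all chromosomes in both comparisons, and chromosome 17 followed with −9.89 and −11.5. In ATRA against DMSO the median was −0.21 points, against 0.22 elsewhere. ATRA+POM against DMSO gave −14.0 points, and ATRA+POM against POM gave 0.06 points.

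A shift of 20 points or more was counted as a call. In POM against DMSO 814 regions (37.7%) were lower, where 14.8% of all shared regions were, and 48 (2.22%) were higher, where 14.4% were. In ATRA+POM against ATRA, 783 (36.3%) were lower, where 15.6% of all were, and 66 (3.06%) were higher, where 15.2% were. In ATRA against DMSO 65 (3.01%) were lower, where 3.64% were, and 26 (1.20%) were higher, where 3.03% were. In ATRA+POM against POM 185 were lower, where 8.77% of all shared regions were, and 151 were higher, where 8.63% were. A call in the same direction in both comparisons of a list with POM against one without it was made for 524 regions that were lower (24.3%, against 6.44% elsewhere) and for 28 that were higher (1.297%, against 8.37% elsewhere). Calls in opposite directions were made for 2 of the 2158 regions (0.093%, against 0.42% elsewhere).

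**Figure D3:**
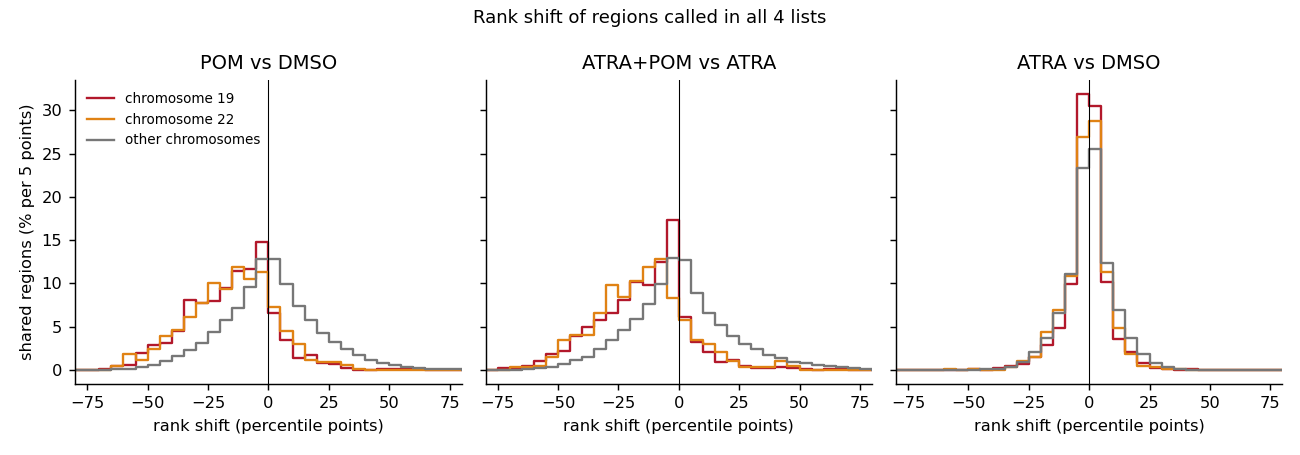
Steps give the percentage of shared regions in each 5-point class of rank shift, on chromosome 19, chromosome 22 and the other chromosomes, for 3 comparisons with 1 library per list. The 2 chromosomes lie left of the others in both comparisons with POM, with medians near −14 points, and lie on them for ATRA against DMSO.

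This shift depended on what was ranked and among which peaks. Each list was also ranked by −log10 q-value over all its own peaks. The median percentile of the 2 chromosomes was then 58.65 in ATRA+POM, 57.04 in POM, 56.09 in ATRA and 54.86 in DMSO. That rank was thus not lower with POM, and the lists differ in which peaks they hold. With the deposited fold in place of the −log10 q-value, the medians over the shared regions were −3.37 points for POM against DMSO and −4.68 for ATRA+POM against ATRA. The median for ATRA against DMSO turned to 2.05. Ranked by the recovered pileup they were −15.95 and −16.27. The fold divides the pileup by the caller's local background, and that background moved with the result. Its median at peaks of the 2 chromosomes was 1.24 times that of the other chromosomes in ATRA+POM, 1.33 times in POM, 1.69 times in ATRA and 1.77 times in DMSO. Its part in the result was not tested. With each pileup divided by the library's median ratio, the median log2 pileup ratio of the shared regions was −0.84 in POM against DMSO and −0.79 in ATRA+POM against ATRA, against 0.04 elsewhere in both.

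The lower ranks were seen at promoters and away from them. Regions within 1 kb of an annotated start (791) had a median shift of −13.4 points in POM against DMSO and −11.7 in ATRA+POM against ATRA, against −3.98 and −3.43 elsewhere. Regions 10 kb or more from any annotated start (953) had −13.7 and −14.1 points, where such regions elsewhere had 2.68 and 1.94. By the number of protein-coding genes within 500 kb, the 88 regions with 0 to 4 genes had −3.67 and −5.90 points, against 5.92 and 6.35 elsewhere. The 189 regions with 5 to 9 genes had −10.8 and −11.1, against 0.87 and 0.12. The 841 regions with 30 or more genes had −14.2 and −14.0, against −8.15 and −9.06 elsewhere. On chromosomes 16, 17 and 20 the class with 20 to 29 genes had −14.1 and −14.0 points, close to the −15.7 and −14.5 of chromosomes 19 and 22. In the class with 5 to 9 genes the chromosomes 16, 17 and 20 had −5.53 and −7.70 points.

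**Figure D4:**
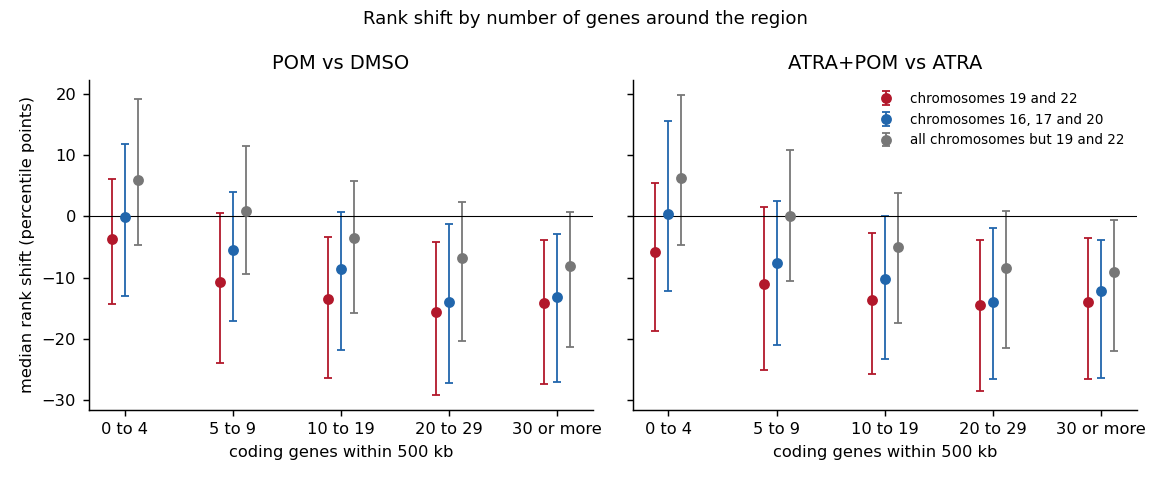
Points give the median rank shift of shared regions by the number of protein-coding genes within 500 kb, and bars the quartiles over regions, which carry no library error. Chromosomes 19 and 22 run from −3.67 points with 0 to 4 genes to −15.7 with 20 to 29 genes for POM against DMSO, below the other chromosomes in each class, and lie near chromosomes 16, 17 and 20 in the classes with 20 or more genes.

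Promoter windows showed the same order of lists. An overlapping peak was present at 1013 of the 1967 windows in ATRA+POM (51.5%), 973 in POM (49.5%), 1108 in ATRA (56.3%) and 1128 in DMSO (57.35%). On the other chromosomes the shares were 51.9%, 50.2%, 53.0% and 53.8% in that order. A peak in both lists without POM and in neither list with it was seen at 65 of the 1967 windows, and the reverse at 0. Among the 20164 windows elsewhere these patterns were seen at 262 and 61. Of the windows with a DMSO peak, 14.2% had none in POM, against 8.07% elsewhere. The shift was largest at the highest GC content in both sets of chromosomes. Windows in shared regions with under 50% GC had a median shift of −10.03 points in POM against DMSO (21 windows, −2.60 elsewhere), and those with 80% GC or more had −21.1 points (38 windows, −9.59 elsewhere). Elsewhere the classes from 50 to 60% and from 60 to 70% GC had −3.44 and −2.94 points, near the lowest class. In ATRA against DMSO the windows with 80% GC or more had −3.31 points, against −3.78 elsewhere.

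A few regions went against the trend of their chromosomes and ranked higher in both lists with POM. Taking the smaller of the shifts in the 2 comparisons, they were led by a region 14488 bp from CLEC4M, a C-type lectin receptor gene, at chr19:7783674-7784493. Its pileup was 59 reads in ATRA+POM, 39 in POM, 17 in ATRA and 20 in DMSO. Both lists with POM thus had more reads there than the lists without POM, although their median pileups were lower. Its percentile was 73.1 in ATRA+POM, 76.8 in POM, 12.6 in ATRA and 12.9 in DMSO. A region 26129 bp from FXYD5, which encodes a regulator of the sodium pump, had 54, 30, 18 and 20 reads in the same order. A region 6705 bp from IGFL2, an insulin growth factor-like gene, had 58, 42, 20 and 42 reads. A region inside ELL, which encodes an elongation factor of RNA polymerase II, had 71, 58, 37 and 41 reads, and its percentile was 73.1 in ATRA+POM, 86.1 in POM, 30.7 in ATRA and 30.3 in DMSO.

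The GGT1 promoter, whose sequence is printed above, was the only region of the 28 within 1 kb of an annotated start. GGT1 encodes gamma-glutamyltransferase, an enzyme of glutathione breakdown, and related copies on chromosome 22 make its reads uncertain. Its region, chr22:24583281-24584399, had 60 reads in ATRA+POM, 33 in POM, 30 in ATRA and 36 in DMSO, and its percentile was 69.2, 66.7, 24.2 and 27.7 in the same order. Others lay inside PLIN3, a lipid droplet coat gene, and inside MTMR3, a lipid phosphatase gene. Their shifts were 33.24 and 31.91 points in POM against DMSO and 41.02 and 45.95 points in ATRA+POM against ATRA. Of all 28 regions 14 lay inside a gene body, where 1047 of all 2158 did, and 16 (57.1%) lay 10 kb or more from a start, where 44.2% of all did. The median number of genes within 500 kb was 28, against 27 for all 2158 regions. SLC5A1, a glucose transporter gene, had 2 of them, and others lay at GADD45B, ZFP36, ANGPTL4, BCR and PDGFB.

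**Figure D5:**
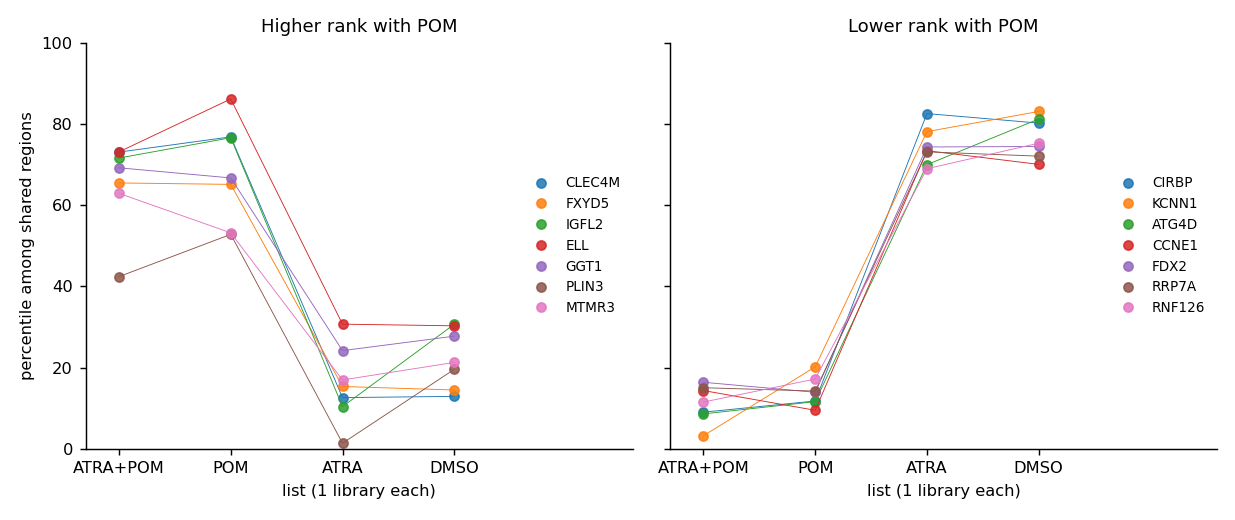
Percentile of each region among the 42930 shared regions in each of the 4 lists, for regions with the highest (left) and the lowest (right) shifts in both comparisons with POM, named by the nearest gene. Lines join the lists of 1 region only to guide the eye. The left panel lies between 42.4 and 86.1 in the lists with POM, and the right panel between 3.22 and 20.2 there.

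The largest shifts in the direction of the trend were found at promoters, inside genes and outside them. A region 2639 bp from CIRBP, which encodes a cold-inducible RNA-binding protein, had 43 reads in ATRA+POM, 26 in POM, 246 in ATRA and 281 in DMSO. Its percentile was 9.01, 11.8, 82.5 and 80.2 in that order, a shift of −68.4 points in POM against DMSO and −73.5 in ATRA+POM against ATRA. A region 3313 bp from KCNN1, a potassium channel gene, had 18, 16, 138 and 192 reads. A region inside ATG4D, which encodes an autophagy protease, had 21, 12, 103 and 174 reads. A region 49163 bp from the cyclin gene CCNE1 had 21, 10, 89 and 98 reads and lay among only 6 genes within 500 kb.

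The promoters of FDX2, RRP7A and RNF126 completed this set. FDX2 encodes a mitochondrial ferredoxin, and its region had 20 reads in ATRA+POM, 10 in POM, 100 in ATRA and 112 in DMSO. RRP7A, a ribosomal RNA processing gene with a related pseudogene on the same chromosome, had 17, 9, 79 and 93 reads and is uncertain for that reason. RNF126 encodes a ubiquitin ligase, and its region had 24, 16, 102 and 151 reads. The FDX2 and RNF126 windows printed above hold 15 and 50 CG dinucleotides. In these 3 promoters the lists with POM and those without it did not overlap in percentile, which the choice of the regions fixes.

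Peaks that were strong in 1 list and absent from another were few. A peak was called strong when its −log10 q-value placed it in the top 20000 of its list, and the 2 chromosomes held 979 of these in ATRA+POM, 991 in POM, 1520 in ATRA and 1531 in DMSO. Among the 1000 strongest they held 65, 52, 142 and 141. In POM against DMSO 4 strong POM peaks had no DMSO peak (0.404%, with 2.26% over the whole genome), and 57 strong DMSO peaks had no POM peak (3.72%, with 1.70% over the whole genome). For ATRA+POM against ATRA, 3 strong peaks were gained (0.306%, genome 3.38%) and 26 were lost (1.71%, genome 0.815%). These counts moved by more than 1.5 times with the number of strong peaks taken, and with 10000 they were 0 gained and 1 lost for POM against DMSO and 0 gained and 2 lost for ATRA+POM against ATRA.

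The 4 peaks gained in POM against DMSO were all called in ATRA+POM as well, and 3 of them lay 10 kb or more from a start. The first was inside CACNA1A, the gene of a neuronal calcium channel, at chr19:13339838-13340378, with 42 reads in ATRA+POM and 33 in POM and no peak in ATRA or DMSO. A peak inside NFIX, a transcription factor gene, had 45 reads in ATRA+POM and 34 in POM. Another strong peak inside NFIX, at chr19:13033861-13034482, was lost in POM, with 33 reads in ATRA+POM, 63 in ATRA and 93 in DMSO. A peak inside ZNF536, a zinc finger gene of the nervous system, had 69 reads in ATRA+POM and 33 in POM, and one 8470 bp from CHST8, a sulfotransferase gene, had 44 and 28. For ATRA+POM against ATRA the gained peaks were the one inside ZNF536, one inside the synapsin gene SYN3 with 43 reads in ATRA+POM and 19 in POM, and one at chr19:27691920-27692569 with 46 and 13 reads and no gene within 100 kb. None of these had a peak in ATRA or DMSO.

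The strongest lost peak in both comparisons lay inside the annotated span of the readthrough gene TPTEP2-CSNK1E, outside CSNK1E itself, at chr22:38398401-38399357, with no peak in ATRA+POM or POM, 169 reads in ATRA and 191 in DMSO. Of the 57 peaks lost in POM, 44 were called in ATRA+POM, with 12 in neither list with POM. A peak 11 bp outside UBXN6, a cofactor of the p97 ATPase, had 21 reads in ATRA+POM, 132 in ATRA and 135 in DMSO. The ZNF550 promoter had 38, 83 and 87 reads in those lists, and its printed window holds 17 CG dinucleotides. Others of the first 10 were in CYP2S1, a cytochrome P450 gene, and near GTPBP3, HIF3A, SMIM44, LGALS2 and IFT27, with DMSO pileups of 79 to 96 reads. The lost peaks in CYP2S1 and near LGALS2 overlapped no peak of either list with POM. Another region inside CYP2S1, chr19:41206016-41206302, was called only in the lists with POM, with 14 reads in ATRA+POM and 15 in POM.

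Among the 26 peaks lost in ATRA+POM, 15 were called in POM and 9 in neither list with POM. The RABL2B promoter had 23 reads in POM, 71 in ATRA and 86 in DMSO, but a near-identical gene on another chromosome makes it uncertain. A peak 481 bp outside MCHR1, the gene of a neuropeptide receptor, had 28, 84 and 79 reads in those lists. A peak 2715 bp from CNN1, which encodes smooth muscle calponin, had 10, 90 and 121 reads, and a second region inside CACNA1A had 15, 77 and 126. The peak at chr22:11706895-11707190, with 21, 70 and 64 reads, has no gene within 100 kb and lies in duplicated sequence near the centromere, so it is uncertain. The first 10 were completed by peaks near LGALS2, SEMA6B, SGTA and IGSF23, and these overlapped no peak of either list with POM.

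The other comparisons gave still fewer. In ATRA against DMSO 0 of 1520 strong peaks were gained, which allows a share of up to 0.252% (genome 0.0450%), and 2 were lost (genome 0.0750%). These were the MICALL1 promoter, of an adaptor of endocytic recycling, at chr22:37905994-37906810 with 16 reads in ATRA+POM, 22 in POM and 84 in DMSO, and a peak inside the semaphorin receptor gene PLXNB2 with 18, 11 and 99 reads. Both were absent only from the ATRA list. In ATRA+POM against DMSO 3 were gained (genome 2.52%) and 27 were lost (genome 0.865%), led by TPTEP2-CSNK1E, CNN1, RABL2B, CACNA1A and CYP2S1. In ATRA+POM against POM 1 was gained (genome 0.350%), 9659 bp from MRTFA, a coactivator of serum response factor, with 38 reads in ATRA+POM, 43 in ATRA and 71 in DMSO. In that comparison 5 were lost (genome 0.645%), near MCHR1, the fatty acid receptor gene FFAR2, RABL2B, VSTM2B and the gene-free site of chromosome 22.

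The 60 regions found in both lists with POM and in neither list without it included 1 within 1 kb of an annotated start. Of the 60, 41 (68.3%) lay 10 kb or more from a start, against 67.0% of the regions in ATRA and DMSO alone and 44.2% of those in all lists, and 12 had no gene within 100 kb. Their median number of genes within 500 kb was 15.5, and 24 of them (40%) had fewer than 10, against 12.8% of the regions called in all lists. The 868 regions in ATRA and DMSO alone had a median of 26 genes. IGFL2 and SYN3 had 3 of the 60 regions each, and CACNA1A and PARVG, an actin-binding gene, had 2 each. Single regions lay at ZNF536, TEAD2, PPARA and TIMP3.

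Across genes, peaks were assigned when their summit lay in the gene body or within 1 kb of it. Of the 1849 protein-coding genes, 1342 had a peak in ATRA+POM, 1324 in POM, 1511 in ATRA and 1494 in DMSO. Genes with a peak in both lists without POM and in neither list with it numbered 94 (5.08%, against 1.76% of the 17968 genes elsewhere), the reverse was seen for 2 genes (0.108%, against 0.646% elsewhere), and 295 genes had no peak in any list. All 47 genes with 8 or more peaks in POM or DMSO had fewer peaks in POM than in DMSO, with a median ratio of 0.545. Each of them passed this filter through its DMSO count, which favours that direction. Over all 1501 genes with a peak in POM or DMSO, 673 (44.8%) had fewer in POM. Of the 47 genes, IGFL2 was among those with the highest ratios. It had 11 peaks in ATRA+POM, 11 in POM, 9 in ATRA and 12 in DMSO. A strong peak inside IGFL2 was nevertheless lost, at chr19:46189385-46189705, with no peak in ATRA+POM or POM, 60 reads in ATRA and 93 in DMSO. In the same order, the insulin receptor gene INSR had 9, 8, 14 and 10, the endocytosis gene EPS15L1 had 6, 7, 7 and 9, and SYN3 had 21, 20, 24 and 26.

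The 5 genes at the other end of the ratio had 0 or 1 peak in POM. NFAM1, which encodes an immune receptor with a signalling motif, had 3 peaks in ATRA+POM, 0 in POM, 7 in ATRA and 8 in DMSO. TAFA5 had 1, 1, 10 and 10, and the nonmuscle myosin gene MYH14 had 1, 1, 10 and 9. The RNA-binding gene CELF5 had 2, 1, 5 and 9 peaks, and SHANK3, the gene of a postsynaptic scaffold, had 1, 1, 6 and 9. These genes were chosen for their ratio, so their values are a description.

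Gene groups differed in how far their peaks followed the chromosomes, whose genes held 2205 POM peaks and 3405 DMSO peaks, a ratio of 0.648. The median shift of shared regions at these genes was −13.8 points in POM against DMSO and −13.7 in ATRA+POM against ATRA. Of these 1587 regions 598 (37.7%) were lower by 20 points or more and 26 (1.64%) higher in POM against DMSO. Of the 1501 genes with a peak in POM or DMSO, 673 (44.8%) had fewer peaks in POM, 760 had equally many and 68 had more. The 240 zinc finger genes of chromosome 19 with a ZNF symbol, many of which encode repressors of transposable elements, had 232 peaks in ATRA+POM, 218 in POM, 269 in ATRA and 271 in DMSO, and the POM to DMSO ratio was 0.804. Fewer peaks in POM than in DMSO were seen for 42 (20.2%, against 44.8% of all genes), equally many for 162 and more for 4. A DMSO peak was present at 207 of the zinc finger genes, with 271 peaks, and at 1494 of all genes, with 3405 peaks. The part of this lower number of peaks per gene was not tested. Shared regions of the zinc finger genes had medians of −12.7 and −8.39 points. Of these 194 regions 61 were lower by 20 points or more in POM against DMSO (31.4%, against 37.7% for all genes). Members with a strong lost peak in POM against DMSO were ZNF550, ZNF329 and ZNF283.

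Genes of B and plasma cells had 42 peaks in ATRA+POM, 33 in POM, 56 in ATRA and 56 in DMSO, a POM to DMSO ratio of 0.589. Their 26 shared regions had medians of −22.8 and −24.9 points, and 14 (53.8%, against 37.7% for all genes) were lower and 0 higher in POM against DMSO. POU2F2, an octamer-binding factor of B cells, had 10, 10, 12 and 15 peaks, and 1 of them was strong and lost in POM. Pileups of list members are given at the shared region that was strongest in DMSO, a choice that favours high DMSO values. At IL2RB, a cytokine receptor gene, that region had 14 reads in ATRA+POM, 10 in POM, 88 in ATRA and 74 in DMSO. XBP1, the plasma cell factor of the unfolded protein response, kept its 1 peak in each list, with 79, 50, 242 and 263 reads. KLF2 had 69, 51, 189 and 344 reads at its top region, and TCF3 had 130, 94, 323 and 378. The surface receptor genes CD37 and FCER2 and the surrogate light chain gene VPREB3 had no peak in any list. The 2 shared regions of TCF3, a B cell factor, had a median shift of 1.16 points in POM against DMSO and −9.77 in ATRA+POM against ATRA.

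Signalling and immediate early genes had 57 peaks in ATRA+POM, 52 in POM, 59 in ATRA and 63 in DMSO, a ratio of 0.825. Of their 45 shared regions 18 were lower (40%) and 2 higher in POM against DMSO, near the 37.7% lower for all genes. JUNB, an AP-1 gene, had 93, 51, 362 and 366 reads at its top region and a shift of −21.1 points. VAV1, which relays antigen receptor signals, had 28, 15, 97 and 114 reads and shifts of −48.2 and −49.5 points. PDGFB, a growth factor gene, went the other way with 89, 46, 59 and 81 reads and shifts of 20.98 and 29.99 points. RRAS, a small GTPase gene, moved by 0.80 and 1.35 points.

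Genes of apoptosis and stress had 20 peaks in ATRA+POM, 23 in POM, 25 in ATRA and 23 in DMSO, which gave a POM to DMSO ratio of 1. Their 16 shared regions had median shifts of −12.9 points in POM against DMSO and −23.1 in ATRA+POM against ATRA. In POM against DMSO 4 were lower (25%, against 37.7% for all genes). In ATRA+POM against ATRA 9 were lower (56.2%, against 36.0% for all genes), and 0 were higher in either comparison. ATF4, a factor of the stress response, had 90, 59, 267 and 273 reads, and BID, a death agonist of the BCL2 family, had 13, 13, 70 and 71. Chromatin genes had 50, 48, 59 and 55 peaks, a ratio of 0.873, and 17 of 42 shared regions were lower in POM (40.5%, near the 37.7% for all genes). UHRF1, which guides DNA methylation, had 57, 25, 165 and 217 reads, while PRMT1, a methyltransferase gene, moved by 0.44 points. Ribosomal protein genes had 17, 16, 20 and 21 peaks, a ratio of 0.762.

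Genes of neurons and excitable cells had 98 peaks in ATRA+POM, 83 in POM, 152 in ATRA and 167 in DMSO, a ratio of 0.497, and 27 of 30 with a DMSO peak had fewer in POM, where 44.8% of all genes with a peak did. All 47 genes with 8 or more peaks in POM or DMSO, of any group, also had fewer, and each passed that filter through DMSO. Of the 51 shared regions of this group 39.2% were lower in POM against DMSO, near the 37.7% for all genes. CACNA1A held a strong peak gained in POM against DMSO and another lost in ATRA+POM against ATRA, and had 17, 11, 19 and 18 peaks in all. The calcium channel gene CACNA1I had 0, 3, 4 and 7 peaks, and UNC13A, a gene of vesicle priming, had 3, 2, 9 and 7. GRIK5, a glutamate receptor gene, held a strong peak lost in POM, and CACNG7 held one lost in ATRA+POM against DMSO.

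Tandem gene families differed in their coverage, and 9 of 22 CEACAM and PSG genes and 6 of 7 APOBEC3 genes had a DMSO peak, against 80.8% of all genes. The CEACAM and PSG genes, which encode adhesion and pregnancy proteins, had 7 peaks in ATRA+POM, 3 in POM, 13 in ATRA and 14 in DMSO, and CEACAM1 held a strong peak lost in POM. Kallikrein genes had 8, 5, 14 and 11 peaks, NLRP genes of innate immunity 6, 6, 14 and 13, cytochromes P450 8, 8, 12 and 11, and SIGLEC genes 7, 8, 12 and 11. The APOBEC3 cytidine deaminase genes had 3, 7, 8 and 9 peaks. APOBEC3B had 0 peaks in ATRA+POM, where its strong ATRA peak was lost, and 2 in each of POM, ATRA and DMSO. Members of these families resemble each other in sequence, so their reads are uncertain.

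The immunoglobulin lambda locus, at chr22:22026076-22922913, had 28 peaks in ATRA+POM, 21 in POM, 40 in ATRA and 41 in DMSO. Its 20 shared regions had median shifts of −18.5 points in POM against DMSO and −19.9 in ATRA+POM against ATRA. The highest pileup there was 60 reads in ATRA+POM, 39 in POM, 116 in ATRA and 164 in DMSO. The C19MC microRNA cluster of chromosome 19, with 42 annotated microRNAs and known for expression in placenta, had 2, 0, 1 and 1 peaks.

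Long stretches held no peak in any list. One ran for 1060.9 kb at chr19:54024340-55085246 across 42 protein-coding genes, from VSTM1 to RDH13. It contains the leukocyte receptor genes LILRB1, LAIR1, KIR3DL1 and NCR1, and all 24 listed genes of that complex had 0 peaks. It also contains RPS9, CNOT3 and PRPF31, genes that nearly all cells use. The assembly carries alternate copies of this locus, and their part in the gap was not tested. Another gap of 569.2 kb on chromosome 19 covered 5 zinc finger genes from ZNF626 to ZNF714, and one of 789.4 kb on chromosome 22 covered 6 genes from GGTLC3 to PRODH in the duplicated part of 22q11. No count in these stretches can be set against a treatment.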

How the data were processed

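ATAC-seq peaks of OPM-2 cells were analysed for 4 treatments with 1 library each, grouped by the treatment label. Per library the authors deposited peaks and summits on hg38, per the submitters' processing notes. Not given in the sources used here: the aligner, the peak caller and any Tn5 shift of reads. Multiplying the −log10 q-value by 10 and dropping decimals gives the deposited score. The deposited fold is a ratio of summit pileup to background, judged from the values. Each summit has a deposited −log10 p-value and a −log10 of its q-value. Other deposited columns give positions. No step that scales libraries is recorded.

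The 23 chromosomes used were the autosomes and X, and 5 peaks lay elsewhere. Overlap means 1 bp or more. Pileups were solved from fold and p under a Poisson tail and gave back the deposited p on the −log10 scale, to within 0.01, for 99.83% of ATRA+POM, 99.98% of POM, 99.69% of ATRA and 99.58% of DMSO peaks. Read totals are unknown here, and intervals cover counting error only. Genes came from RefSeq GRCh38.p14, without rows whose order put them on other scaffolds (53 coding rows of the 2 chromosomes). Python 3.11.15, numpy 2.4.6, pandas 2.3.3 and scipy 1.17.1 were used. Simulated lists with known answers served to test the code.

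The members and gene lists were chosen with earlier results of these data known. Named were the 10 strongest gained and lost peaks (5 in the comparisons other than POM against DMSO and ATRA+POM against ATRA), the 8 shared regions with the highest and the 8 with the lowest shifts in both comparisons, 5 genes at each end of the peak ratio, 3 bins at each end, and list members with a strong gained or lost peak. Some items that this rule names are not reported here. The lost peaks inside NFIX and IGFL2, further members of the gene lists, of the 28 and of the 60 regions, the bin at 23 Mb and the one at 27 Mb were picked after their values were seen.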

Additional observations from a re-analysis of the deposited data

How the results depend on the processing

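The lower share on chromosomes 19 and 22 in lists with POM kept its direction in each alternative, but its size moved. With the 60000 strongest peaks of each list the log2 share ratio was −0.51 for POM against DMSO, −0.53 for ATRA+POM against ATRA, −0.58 for ATRA+POM against DMSO and −0.072 for ATRA+POM against POM. With peaks of 300 bp or wider it was −0.47 for POM against DMSO and −0.26 for ATRA+POM against POM. The median rank shift ranked by fold was −3.37 for POM against DMSO, −4.68 for ATRA+POM against ATRA, −3.30 for ATRA+POM against DMSO and 0.47 for ATRA+POM against POM, and for ATRA against DMSO it turned to 2.05. Ranked by recovered pileup, an alternative chosen after seeing the data, the medians were −15.95, −16.27, −17.19 and −0.49 for the first 4 of these comparisons in the same order. Regions with summits within 250 bp in all lists gave −14.8 for POM against DMSO. Chromosome 22 alone gave −14.9 for ATRA+POM against ATRA, −15.2 for ATRA+POM against DMSO and −0.31 for ATRA+POM against POM.

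Counts of strong peaks depended on the definition. With 10000 strong peaks, 0 were gained and 1 lost for POM against DMSO, 0 and 2 for ATRA+POM against ATRA and for ATRA+POM against DMSO, 0 lost for ATRA against DMSO, and 0 and 0 for ATRA+POM against POM. With 30000 they were 9 and 223, 15 and 119, 10 and 135, 2 and 6, and 13 and 18 in that order of comparisons. With absence defined as no summit within 250 bp they were 51 and 120, 41 and 89, 40 and 84, 35 and 33, and 30 and 32. No genome-wide shares are given for these alternative counts, so they cannot be read against the whole lists. With the 60000 strongest peaks no bin was above its chromosome (0 in POM against DMSO and 0 in ATRA+POM against ATRA), and with 2 Mb bins ATRA+POM against ATRA had 0 above and 0 below. The median width was 820 bp in ATRA+POM, 616 bp in POM, 901 bp in ATRA and 933 bp in DMSO for the 20000 strongest peaks, and 666.5, 473.5, 833.5 and 850 bp for peaks in shared regions. The cause of these moves was not tested. Of 91 alternatives, 31 stayed within the limits, 59 moved and 1 reversed. Those counted as moved include 2 that changed sign from a value near 0. They are the median rank shift for ATRA+POM against POM ranked by pileup and on chromosome 22 alone, from 0.06 in the main setting.

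With 1 library per treatment, differences between libraries and effects of treatment cannot be told apart. POM had the lowest pileups, with a median of 15 reads and a smallest pileup of 4, which limits what that list can call. No paired analysis was possible because each treatment has a single library, so no replicate numbers pair samples. A fit that takes POM with and without ATRA as repeats of each other would use their difference as error and was not run.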
